A study of Homo sapiens with 64 samples.

Results

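The genes described here are 27 genes of cholesterol synthesis, sterol sensing and sterol uptake, measured in colorectal cancer cell lines that had been sorted by how fast they divide. They were found by matching the gene identifier of each row to a fixed list of symbols, and all 27 were present among the 54127 genes counted. By role, 8 make farnesyl and geranylgeranyl diphosphate from acetyl-CoA, 3 carry farnesyl diphosphate to lanosterol, 9 carry lanosterol to cholesterol, 4 sense sterols or act as or on the regulator SREBP2, and 3 take up, carry or bind sterols.

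The study labeled cells with CFSE, a dye that is diluted by about the same factor at every division, so that a cell that keeps it has divided little. Labeled DLD1, HCT15, HT55, SW948, RKO and SW48 cells grew as non-adherent spheroids for 6 days in serum-free medium with EGF and bFGF, at 5% oxygen. They were then sorted into label-retaining cells (LRCs, CFSE high) and the remaining labeled cells (non-LRCs), with 4 samples of each population in each line. Unsorted DLD1 cells, with CFSE or unlabeled (given DMSO, the solvent, in place of the dye), were collected as controls on day 1 and on a later day that the sample labels call day 5 and the series description calls day 6, again with 4 samples per group. The methods call the 4 samples of a group biological replicates, and p-values of a line taken alone measure the spread between them. The fit over 6 lines has no term for an LRC change that differs by line. Its spread therefore also takes in such differences, and its units are samples, not lines. The control fits share 1 spread over all their samples, so a p-value there also depends on groups outside the comparison.

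Cells make cholesterol from acetyl-CoA by way of mevalonate, isoprenoid diphosphates, squalene and lanosterol. When sterols in the endoplasmic reticulum run low, SCAP escorts the transcription factor SREBP2 (gene SREBF2) to the Golgi, where it is cut and released to the nucleus, and the genes of the pathway are switched on together. INSIG1 and INSIG2 hold SCAP and SREBP2 back when sterols are plentiful, and INSIG1 is itself a target of SREBP. Serum lipoproteins are a source of sterol for most cultured cells, and serum-free medium holds little of it.

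SREBP binds sterol regulatory elements close to gene starts, usually together with NF-Y, which reads CCAAT, and Sp1, which reads GGGCGG. Promoter windows of 300 bases, from 250 before to 50 after the gene start, were listed by RefSeq on GRCh38.p14 for 24 of the 27 genes. The windows of 5 genes are shown because these genes mark the contrasts below: the regulator SREBF2, its targets LSS and MVK, which had the smallest p-values in LRCs, and the pair INSIG1 and INSIG2, whose fitted changes in LRCs had opposite signs. Capitals mark TCACNCCAC, a form of the sterol regulatory element, the palindrome TCACGTGA, CCAAT and GGGCGG, each on either strand, and the sequences run 5′ to 3′ on the strand of the gene. INSIG2 has 2 windows in the table, and the first is shown.
SREBF2, chr22:41832855-41833154, plus strand: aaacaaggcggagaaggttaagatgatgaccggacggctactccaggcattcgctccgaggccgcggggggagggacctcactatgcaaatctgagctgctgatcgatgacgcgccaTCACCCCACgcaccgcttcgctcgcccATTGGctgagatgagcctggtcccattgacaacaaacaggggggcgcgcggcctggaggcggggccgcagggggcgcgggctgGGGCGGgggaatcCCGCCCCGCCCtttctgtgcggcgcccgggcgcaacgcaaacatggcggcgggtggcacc
LSS, chr21:46228725-46229024, minus strand: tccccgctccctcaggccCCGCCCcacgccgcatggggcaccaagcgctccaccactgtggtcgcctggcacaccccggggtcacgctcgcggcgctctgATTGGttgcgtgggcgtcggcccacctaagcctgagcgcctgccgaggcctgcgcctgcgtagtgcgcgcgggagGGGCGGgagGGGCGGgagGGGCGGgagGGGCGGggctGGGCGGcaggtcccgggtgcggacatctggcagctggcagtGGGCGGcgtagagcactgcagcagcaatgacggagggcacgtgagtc
MVK, chr12:109573544-109573843, plus strand: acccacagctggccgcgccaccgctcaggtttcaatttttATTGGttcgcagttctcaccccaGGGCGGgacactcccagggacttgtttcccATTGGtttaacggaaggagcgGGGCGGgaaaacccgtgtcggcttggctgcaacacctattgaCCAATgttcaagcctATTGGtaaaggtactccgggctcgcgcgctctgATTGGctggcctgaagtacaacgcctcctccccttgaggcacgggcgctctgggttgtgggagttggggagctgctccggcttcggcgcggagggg
INSIG1, chr7:155297628-155297927, plus strand: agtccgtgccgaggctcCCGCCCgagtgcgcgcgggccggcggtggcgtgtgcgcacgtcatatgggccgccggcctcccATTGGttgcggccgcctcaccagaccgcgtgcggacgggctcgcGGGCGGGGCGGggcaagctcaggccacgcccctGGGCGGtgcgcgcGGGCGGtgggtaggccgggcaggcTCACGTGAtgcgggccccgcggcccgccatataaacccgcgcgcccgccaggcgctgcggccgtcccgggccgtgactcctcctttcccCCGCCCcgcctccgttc
INSIG2, chr2:118088221-118088520, plus strand: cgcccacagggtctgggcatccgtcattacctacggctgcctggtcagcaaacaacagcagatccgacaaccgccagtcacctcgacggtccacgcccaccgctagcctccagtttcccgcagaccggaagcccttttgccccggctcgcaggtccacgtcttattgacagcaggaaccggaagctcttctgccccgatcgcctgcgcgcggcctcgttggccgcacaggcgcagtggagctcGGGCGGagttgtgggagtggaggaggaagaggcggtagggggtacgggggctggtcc

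TCACNCCAC occurred in a window of 1.39% of the 27305 genes listed (35116 windows), and of the 24 sterol genes SREBF2 was the only gene that had it. TCACGTGA occurred in 1.18% of all genes listed and, among the sterol genes, in INSIG1. CCAAT occurred in 39.7% of all genes listed, and 19 of the 24 genes had it, including 12 of the 14 that were lower in LRCs across the lines and 7 of the other 10. The window shown for MVK held 5 copies of CCAAT, those for SREBF2, LSS and INSIG1 held 1 each, and the window shown for INSIG2 held none. GGGCGG occurred in 48.3% of all genes listed and in 21 of the 24 genes, 12 of the 14 lower in LRCs and 9 of the other 10. These matches describe the letters of the windows alone, and no binding was measured.

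Each library held between 12237225 and 20913455 reads on genes, and levels are given as CPM, read counts scaled to a common library total with TMM factors. Of 10 epithelial markers, EPCAM, KRT8, KRT18, KRT19 and CDH1 averaged 315 to 5919 CPM and CDX2 35.9 to 379 CPM in both populations of the 5 lines other than RKO. The other markers, KRT20, VIL1, LGALS4 and CEACAM5, averaged 177 to 2971 CPM in HT55 and SW948, but KRT20 and LGALS4 were at 0.25 to 0.41 CPM in SW48 and 2.94 to 4.19 CPM in HCT15, VIL1 was at 3.31 CPM in SW48, and CEACAM5 was at 0.49 to 0.57 CPM in HCT15. In RKO, EPCAM averaged 15.6 CPM in non-LRCs and 17.4 CPM in LRCs, KRT8 72.5 and 109.8 CPM, KRT18 119 and 148 CPM and CDX2 20.1 and 17.5 CPM, and the other 6 averaged 0.13 to 1.19 CPM. The T cell marker CD3E was at 0 in every group, and the summed level of 7 markers of other cell types lay between 4.46 and 105 CPM in the sorted samples outside RKO, while RKO held 1046 CPM of CD68 in non-LRCs and 1305 CPM in LRCs. Among the controls, 1 library went against its label: the library labeled unlabeled day 1 replicate 4 correlated at 0.977 to 0.992 with the unlabeled day 5 libraries and at 0.958 to 0.968 with the other unlabeled day 1 libraries, over log2 CPM of all genes that passed the filter. CFSE day 1 replicates 1 and 2 stood apart from replicates 3 and 4, with correlations of 0.969 to 0.970 between the pairs and 0.992 and 0.994 within them. Control results are therefore given with all 16 samples and without those 3 libraries. The CFSE day 1 samples then left, replicates 3 and 4, correlated at 0.985 to 0.987 with unlabeled day 1 replicates 1 to 3. For CFSE day 1 replicates 1 and 2 this was 0.947 to 0.958, so the samples kept are those nearer the unlabeled cells. In DLD1, HCT15, HT55 and SW48, sorted samples with the same replicate number deviated together, and for these lines results of a fit with the replicate number as a block are given where they change the calls. In DLD1 and HCT15, differently numbered samples within replicates 1 and 2, or within 3 and 4, did so as well. The numbers there do not single out the pairs.

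Per kilobase of exon, FDFT1, which joins farnesyl diphosphates into squalene, had the highest level of the 27 genes in non-LRCs, with a median over the 6 lines of 89.2 CPM per kilobase and a range of 42.5 to 194. FDPS, farnesyl diphosphate synthase, followed at a median of 72.7, INSIG1 at 63.8, SREBF2 at 63.4 and the methylsterol oxidase MSMO1 at 61.9 CPM per kilobase, and the ranges of these 5 genes over the lines overlapped. At the low end stood HSD17B7, a 3-ketosteroid reductase of the late pathway, at 2.97 and NPC1L1, the cholesterol uptake protein of the gut lumen, at 0.08 CPM per kilobase. SREBF2 ran from 48 to 71 CPM per kilobase over the non-LRCs of the 6 lines, and INSIG1 ran from 39.8 in DLD1 to 147 in SW948. The length used is that of all annotated exons of a gene, not of the transcript expressed, and rankings between genes depend on that choice.

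The first comparison asked whether cells that had divided little differed from the rest of the same spheroids, across the 6 lines together. In LRCs, 17 of the 27 genes were lower and 1 was higher at an adjusted p under 0.05 (edgeR's quasi-likelihood test in a fit that also held the lines, Benjamini-Hochberg adjusted over 16603 genes), where 10.7% of all genes tested were lower and 12.2% were higher. The median log2 fold change of the 27 was −0.22, beside 0.01 over all genes tested. The fitted changes of the 17 lower genes ran from −0.14 for SREBF2 to −0.46 for HMGCS1, the synthase that starts the mevalonate branch. These are sums over sorted cells, so fewer cells of a type and less RNA per cell cannot be told apart. Without RKO, the line with the lowest median change, 10 of the 27 were lower and none was called higher, where 6.62% of all genes were lower and 7.98% higher.

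The map of fold changes by line shows where these differences lay.

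**Figure D1:**
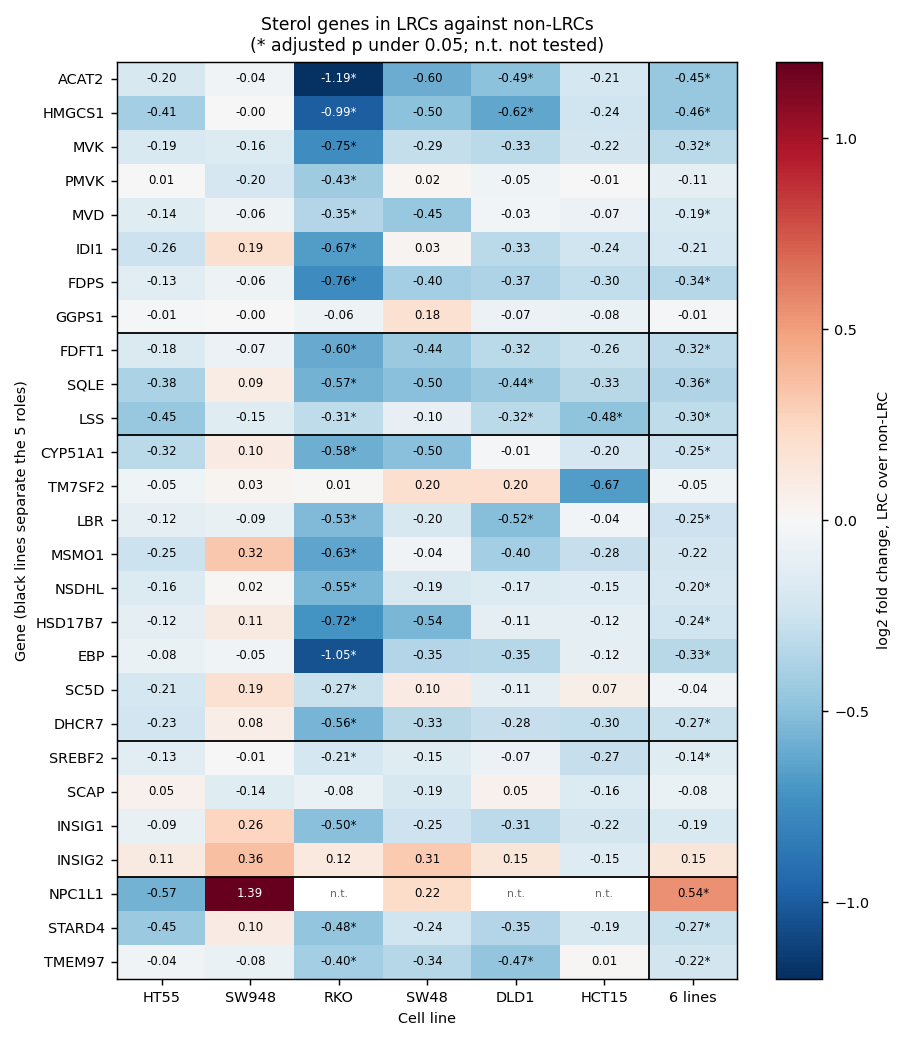
Log2 fold change of LRCs over non-LRCs for the 27 genes (rows, grouped by role) in each cell line and in the fit over 6 lines (columns), with an asterisk for an adjusted p under 0.05. RKO holds 22 asterisks, DLD1 holds 6, HCT15 holds 1, and HT55, SW948 and SW48 hold none.

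All 3 genes that lead from farnesyl diphosphate to lanosterol fell. LSS, lanosterol synthase, which closes the ring system (chr21:47608055-47648738, minus strand, GRCh37), had the smallest p of the 27 genes, with a log2 fold change of −0.30 ± 0.05 (SE) and an adjusted p of 4.22e-06 by edgeR's quasi-likelihood test. It was lower in LRCs in 6 of 6 lines and in 14 of the 16 same-numbered pairs of the 4 lines where such samples deviated together (DLD1, HCT15, HT55 and SW48). The numbers do not single out the pairs in DLD1 and HCT15, so the 16 are not all separate matched pairs. In DLD1, LSS measured 111.8, 107.5, 109.3 and 114.3 CPM in the 4 non-LRC samples and 90.5, 82.6, 90.0 and 86.6 CPM in the 4 LRC samples. In HCT15 it measured 134.7, 116.9, 125.0 and 109.5 CPM in non-LRCs and 87.4, 75.4, 89.2 and 92.4 CPM in LRCs. The populations did not overlap in either line, and in RKO the 4 LRC samples (70.2 to 88.6 CPM) also lay under the 4 non-LRC samples (93.3 to 103.6 CPM).

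FDFT1, squalene synthase, changed by −0.32 ± 0.06 (SE) on the log2 scale across the lines (adjusted p = 0.000138, edgeR) and was lower in 16 of these 16 pairs. In RKO it measured 453.5, 450.1, 482.5 and 519.2 CPM in non-LRCs and 302.7, 320.1, 314.4 and 333.7 CPM in LRCs. SQLE, squalene epoxidase, the oxygen-using step before ring closure, changed by −0.36 ± 0.07 (adjusted p = 0.00033, edgeR) and was lower in 16 of 16 pairs. Its values in RKO were 465.9, 474.3, 383.4 and 470.5 CPM in non-LRCs against 295.7, 286.5, 298.4 and 344.3 CPM in LRCs, and in DLD1 they were 213.5, 209.4, 174.8 and 173.6 CPM against 152.8, 154.2, 127.6 and 125.1 CPM. Both lines separated the populations for SQLE, and in SW948 its fitted change was 0.09 and was not called.

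Of the 8 genes of the mevalonate and isoprenoid steps, 5 fell across the lines (ACAT2, HMGCS1, MVK, MVD and FDPS) and 3 were not called. MVK, mevalonate kinase (chr12:110011060-110035930, plus strand, GRCh37), changed by −0.32 ± 0.06 (adjusted p = 4.44e-05, edgeR) and was lower in 15 of 16 pairs and in 6 of 6 lines. In RKO, MVK measured 39.6, 39.1, 44.6 and 40.2 CPM in non-LRCs and 24.2, 22.8, 27.9 and 23.9 CPM in LRCs. The largest fitted changes of the group were those of HMGCS1 (−0.46 ± 0.11) and of ACAT2, the cytosolic thiolase that makes acetoacetyl-CoA (−0.45 ± 0.11), with edgeR adjusted p-values of 0.00202 and 0.00255. PMVK, which adds the second phosphate to mevalonate, had a fitted change of −0.11 ± 0.05 (adjusted p = 0.0846), IDI1, the isomerase of isopentenyl diphosphate, had −0.21 ± 0.08 (adjusted p = 0.0571), and GGPS1, which makes geranylgeranyl diphosphate for protein prenylation and so leaves the sterol route, had −0.01 ± 0.04 (adjusted p = 0.86).

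Of the 9 genes between lanosterol and cholesterol, 6 fell: LBR, EBP, DHCR7, NSDHL, CYP51A1 and HSD17B7, with fitted changes from −0.20 to −0.33. LBR, a sterol C14 reductase that also anchors chromatin at the nuclear envelope (chr1:225589204-225616627, minus strand, GRCh37), changed by −0.25 ± 0.05 (adjusted p = 0.000554, edgeR) and was lower in 13 of 16 pairs. EBP, a sterol isomerase, changed by −0.33 ± 0.08, and DHCR7, the reductase of 7-dehydrocholesterol, changed by −0.27 ± 0.07. TM7SF2, the other sterol C14 reductase, had a fitted change of −0.05 ± 0.06, SC5D, the desaturase of the late pathway, had −0.04 ± 0.07, and MSMO1 had −0.22 ± 0.10, none of which was called. The exons of CYP51A1, lanosterol demethylase, lie to 74.1% under exons of other genes in the GENCODE annotation used here, those of GGPS1 to 41%, HMGCS1 to 37.7% and EBP to 36.4%, and FDPS and HSD17B7 have near-identical pseudogene copies, so their counts may hold or miss reads of other genes.

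Among the sensing genes, SREBF2 (chr22:42229109-42303310, plus strand, GRCh37) changed by −0.14 ± 0.03 (adjusted p = 0.000559, edgeR). It was lower in 16 of 16 pairs and in 6 of 6 lines, a change that was small in size. In RKO, SREBF2 measured 559.4, 576.0, 502.0 and 539.7 CPM in non-LRCs and 483.1, 444.6, 517.5 and 459.1 CPM in LRCs, and the populations overlapped there. SCAP (−0.08 ± 0.04), INSIG1 (−0.19 ± 0.08) and INSIG2 (0.15 ± 0.06) were not called, and INSIG2 was higher in LRCs in 5 of 6 lines while INSIG1 was lower in 5 of 6. With the replicate number as a block, INSIG1 (−0.18 ± 0.05, adjusted p = 0.00961), IDI1 (−0.20 ± 0.06, adjusted p = 0.0145) and MSMO1 (−0.20 ± 0.08, adjusted p = 0.0445) were lower and INSIG2 was higher (0.14 ± 0.05, adjusted p = 0.0339), by edgeR, where 12.2% of all genes were lower and 13.4% higher under the block. The replicate plot of the 6 genes given in full shows the pairs.

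**Figure D2:**
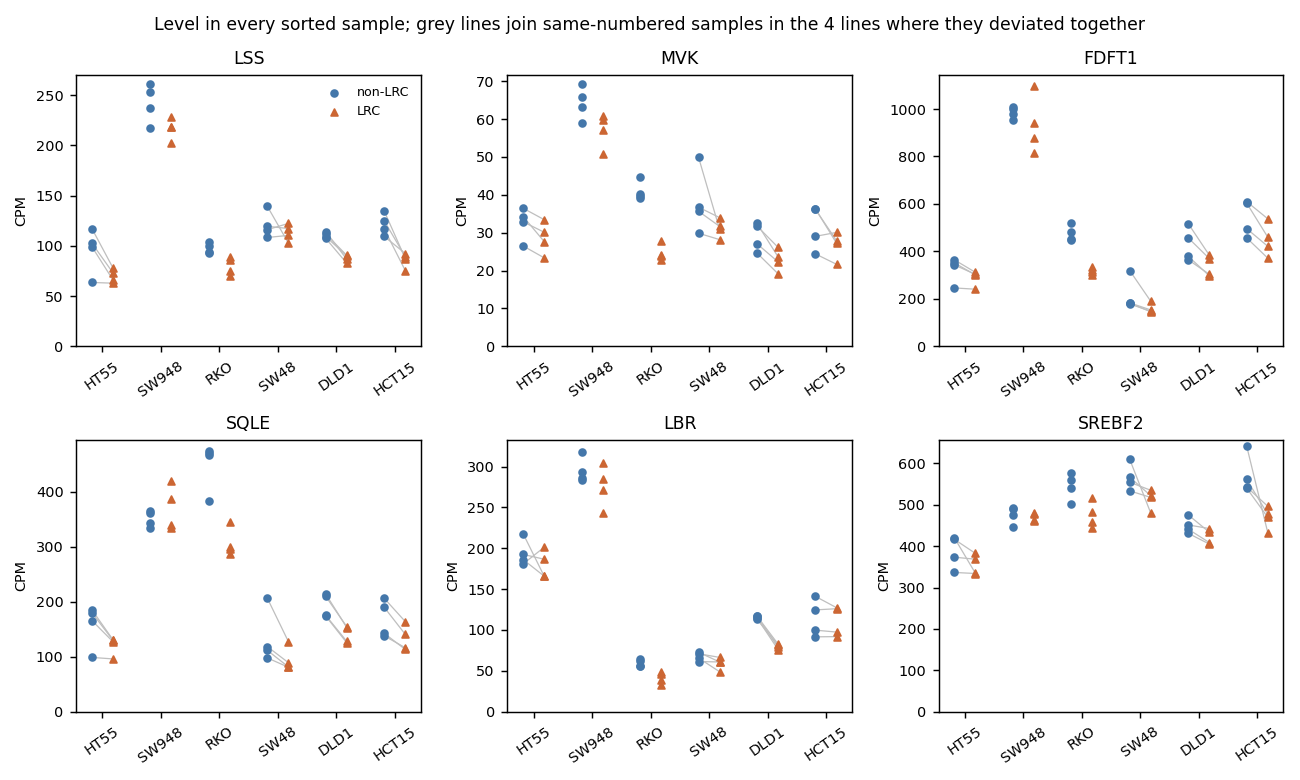
Level in CPM (vertical axis, from 0) of LSS, MVK, FDFT1, SQLE, LBR and SREBF2 in all 48 sorted samples by cell line, with circles for non-LRCs, triangles for LRCs and grey lines joining samples of the same replicate number in the 4 lines where such samples deviated together. LRC samples lie under their partners in 14 of 16 pairs for LSS, 15 for MVK, 16 for FDFT1, 16 for SQLE, 13 for LBR and 16 for SREBF2. The numbers do not single out the pairs in DLD1 and HCT15.

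Of the 3 uptake and transport genes, STARD4, a carrier of free cholesterol, fell by 0.27 on the log2 scale (adjusted p = 0.0269, edgeR) and TMEM97, a sterol-binding protein that regulates NPC1, fell by 0.22 (adjusted p = 0.0013). NPC1L1 was the gene that rose, by 0.54 ± 0.20 (adjusted p = 0.046, edgeR), on 1037 reads in all 64 samples. The block took that call away (adjusted p = 0.116), as did leaving out any 1 replicate number, any line but HT55, or the filter on low counts, and so did scaling by library size alone. It measured 0.76 ± 0.22 CPM in non-LRCs and 2.03 ± 0.93 CPM in LRCs of SW948 (SD, n = 4), and in RKO, DLD1 and HCT15 its mean level was under 0.5 CPM in either population. In HT55, where its level was highest, it measured 5.24 ± 0.86 CPM in non-LRCs and 3.54 ± 0.92 CPM in LRCs (SD, n = 4).

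The second set of comparisons took each line alone. In RKO, 22 of the 26 genes that passed the filter on low counts were lower in LRCs and none was higher by edgeR, where 21% of all genes tested were lower and 20.4% higher. The 4 LRC samples lay under the 4 non-LRC samples for 20 genes, where 18.4% of all genes did so. The largest fitted changes in RKO were those of ACAT2 (−1.19 ± 0.08, adjusted p = 5.91e-08), EBP (−1.05 ± 0.08, adjusted p = 2.2e-07) and HMGCS1 (−0.99 ± 0.10, adjusted p = 3.59e-06). ACAT2 measured 116.6, 119.1, 125.4 and 128.3 CPM in non-LRCs and 45.2, 53.5, 58.6 and 59.4 CPM in LRCs. TM7SF2 (0.01 ± 0.09), GGPS1 (−0.06 ± 0.08), SCAP (−0.08 ± 0.08) and INSIG2 (0.12 ± 0.14) were the 4 genes not called in RKO. In the same libraries, 10 of 12 proliferation genes were lower, their summed level was 1082 to 1755 CPM in LRCs and 2155 to 2335 CPM in non-LRCs, and mitochondrial genes took 7.01% to 10.5% of reads in LRCs and 4.47% to 6.57% in non-LRCs. The part of either in the result was not tested.

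In DLD1, 6 of 26 genes were lower in LRCs by edgeR (LBR, LSS, TMEM97, SQLE, HMGCS1 and ACAT2), where 7.89% of all genes were lower, and with the replicate number as a block 16 were lower and TM7SF2 was higher, where 16.6% of all genes were lower and 17.1% were higher. LBR had the smallest p and changed by −0.52 ± 0.05 (adjusted p = 0.000288), from 116.9, 113.2, 116.9 and 114.7 CPM in non-LRCs to 82.7, 81.3, 78.8 and 76.1 CPM in LRCs. HMGCS1 measured 453.7, 457.9, 328.8 and 300.8 CPM in non-LRCs and 286.4, 302.4, 192.0 and 207.9 CPM in LRCs. Replicates 1 and 2 were higher than replicates 3 and 4 in both populations for HMGCS1. The populations overlapped, although each LRC sample lay under the non-LRC sample of its number. Of 12 proliferation genes, 10 were lower in DLD1 LRCs as well, without the block, and their part in the result was not tested.

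In HCT15, LSS was the 1 gene called (−0.48 ± 0.09, adjusted p = 0.046, edgeR), where 0.25% of all genes were lower, and the call was lost when any 1 of 7 of the 8 libraries was left out. With the block, 12 genes were lower, where 10% of all genes were. SREBF2 separated the populations there, with 641.7, 561.5, 543.2 and 540.4 CPM in non-LRCs and 432.9, 477.2, 496.5 and 469.8 CPM in LRCs. Without the block, none of the 12 proliferation genes was called in HCT15, where 0.977% of all genes were called in either direction. Their summed level was 1410 to 2421 CPM in LRCs and 1329 to 2178 CPM in non-LRCs. Proliferation genes were not read with the block, so their count cannot be set beside the 12 sterol genes. Their part in the result was not tested.

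In SW48, edgeR called 0 of the 27 genes at the adjusted threshold, with 8 at an unadjusted p under 0.05 (1728 of all 13196 genes tested) and 1 called by DESeq2, and 0.796% of all genes were called. With the block, 10 genes were lower and INSIG2 was higher, where 4.33% of all genes were lower and 5.36% were higher. Replicate 2 stood apart in both populations: ACAT2 measured 135.2 CPM in non-LRC replicate 2 and 37.6, 41.2 and 45.1 CPM in the others, and 71.7 CPM in LRC replicate 2 and 26.7, 34.8 and 38.6 CPM in the others. HMGCS1 was likewise at 353.0 CPM in non-LRC replicate 2 and at 106.4 to 152.4 CPM in the other non-LRC samples. Leaving out either library of that pair left 0 calls. Mitochondrial genes took 13.8% to 14.2% of reads in SW48 LRCs and 9.66% to 11.3% in non-LRCs. Without the block, none of the 12 proliferation genes was called, with 1 at an unadjusted p under 0.05 by edgeR. All 12 fitted changes were under 0, with a median of −0.45. Their summed level was 976 to 1785 CPM in LRCs and 1129 to 2512 CPM in non-LRCs, and they were not read with the block. The part of either in the result was not tested.

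In HT55, edgeR called 0 of the 27 genes, with 3 at an unadjusted p under 0.05 (1005 of all 13391 genes tested), DESeq2 called 0, and the block also gave 0, in a line where 0% of all genes were called. The fitted change was under 0 for 24 of the 27 genes, with a median of −0.16, where it was under 0 for 50.7% of all genes. Leaving out non-LRC replicate 2 gave 4 lower genes, where 1.04% of all genes were lower. In SW948, edgeR called 0 genes, with 5 at an unadjusted p under 0.05 (2350 of all 13674 genes tested), and DESeq2 called 1. The block gave 1, NPC1L1, which was higher, where 3.06% of all genes were, and without the block 0% of all genes were called. The fitted change was under 0 for 14 of 27 genes, with a median of −0.002, near the 51.1% of all genes under 0 in SW948. In RKO and HCT15 it was under 0 for 24 of 26 genes, where 49.1% and 50.4% of all genes were. Leaving out LRC replicate 4 of SW948 gave 4 higher genes, where 9.32% of all genes were higher. MSMO1 (0.32), INSIG1 (0.26), IDI1 (0.19) and SQLE (0.09) had fitted changes above 0 in SW948 and below 0 in RKO, DLD1 and HCT15, without a call in SW948.

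Whether the LRC change differed among lines was tested with an interaction of line and population. By edgeR, 4 of the 27 genes passed, where 14.3% of all genes did: NPC1L1 (adjusted p = 0.000445), TM7SF2 (adjusted p = 0.000945), EBP (adjusted p = 0.0119) and LBR (adjusted p = 0.04998). Leaving out 1 replicate number in all lines gave 2 genes (replicates 1, 3 and 4) or 9 genes (replicate 2). With the block 19 passed, where 33.6% of all genes did. Without the block the share of the 27 that passed was near the share of all genes.

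TM7SF2 and LBR carry out the same reduction of the sterol C14 bond, and their patterns over the lines differed. TM7SF2 (chr11:64879317-64883856, plus strand, GRCh37) had a fitted change of −0.67 ± 0.15 in HCT15, 0.20 ± 0.06 in DLD1, 0.20 ± 0.12 in SW48, 0.01 ± 0.09 in RKO, 0.03 ± 0.10 in SW948 and −0.05 ± 0.11 in HT55. In HCT15 it measured 116.8, 107.9, 147.8 and 136.6 CPM in non-LRCs and 63.3, 68.0, 95.5 and 91.1 CPM in LRCs, without overlap, at an edgeR adjusted p of 0.0698 for TM7SF2 without the block and 3.13e-06 with it. LBR in HCT15 had a fitted change of −0.04 ± 0.15, from 124.6, 141.1, 91.6 and 99.8 CPM in non-LRCs to 126.0, 127.3, 91.9 and 97.5 CPM in LRCs, and the populations overlapped. Per kilobase of exon, LBR stood above TM7SF2 in HT55 non-LRCs (34 against 4.84 CPM per kilobase) and in SW948 (51.7 against 11.2), level with it in DLD1 (20.2 against 20.6), and below it in RKO (10.4 against 26.5), SW48 (11.9 against 16.3) and HCT15 (20 against 37.3). In DLD1 LRCs, LBR was at 14 and TM7SF2 at 23.4 CPM per kilobase. Which of these genes stands higher depends on the length used, here all annotated exons (5710 bases for LBR and 3408 for TM7SF2).

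EBP (chrX:48380187-48387104, plus strand, GRCh37) measured 95.9, 95.3, 109.0 and 103.7 CPM in RKO non-LRCs and 47.9, 43.4, 51.9 and 54.7 CPM in RKO LRCs. Elsewhere its fitted change was −0.35 ± 0.11 in DLD1, −0.35 ± 0.25 in SW48, −0.12 ± 0.13 in HCT15, −0.08 ± 0.11 in HT55 and −0.05 ± 0.08 in SW948, so that RKO stood furthest from 0. NPC1L1 (chr7:44552134-44580929, minus strand, GRCh37) was tested alone in HT55 (−0.57 ± 0.22), SW948 (1.39 ± 0.36) and SW48 (0.22 ± 0.27), and its counts were too low in the other 3 lines.

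**Figure D3:**
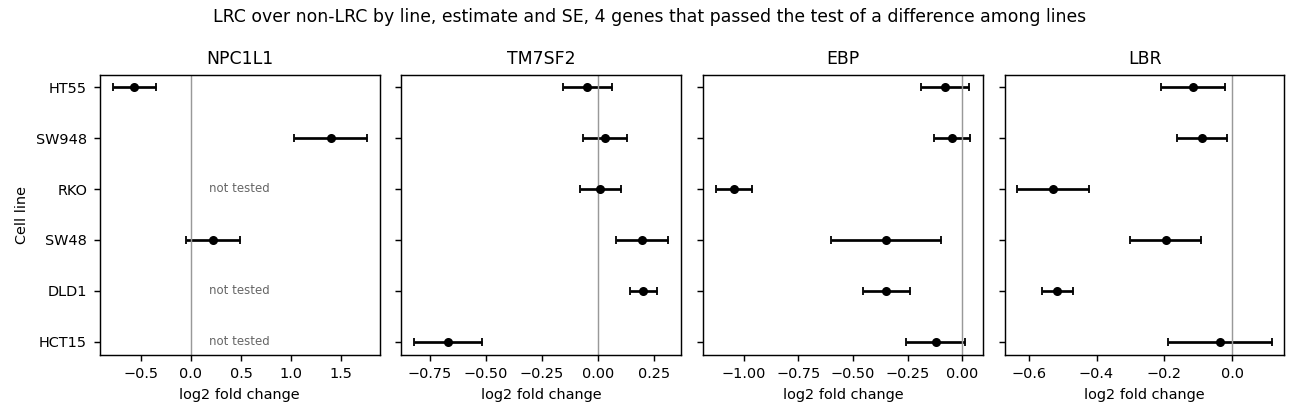
Fitted log2 fold change of LRCs over non-LRCs with its SE (horizontal axis, a scale of its own in each panel) by cell line (vertical axis) for the 4 genes that passed the test of a difference among lines. The lowest point is HT55 for NPC1L1, HCT15 for TM7SF2 and RKO for EBP and LBR.

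Other genes of lipid metabolism, listed with earlier results of these data known, were read in the same fit over 6 lines. In that fit 10.7% of all genes tested were lower and 12.2% were higher. Of 10 genes of SREBP processing and turnover, 0 were called by edgeR, with 3 at an unadjusted p under 0.05, and the median was −0.01. Of 12 isoprenoid users 3 were lower, namely PDSS1 and COQ2, which act in coenzyme Q synthesis, and NUS1, which acts in dolichol synthesis, with a median of −0.02. Of 10 fatty acid synthesis genes tested 4 were lower and none was higher, with a median of −0.18, led by ELOVL6 (−0.39 ± 0.07), ACLY (−0.17 ± 0.03) and FASN (−0.30 ± 0.06). In the opposite direction, 6 of 11 genes of sterol storage and intracellular transport were higher, led by VLDLR (0.66 ± 0.13), a lipoprotein receptor, and 3 of 7 genes of LXR response and sterol efflux were higher: the cholesterol exporters ABCG1 and ABCA1 and the ubiquitin ligase MYLIP (0.26 ± 0.06). Of 12 proliferation genes 7 were lower, with a median of −0.26. Of the marker lists, 1 of 10 epithelial genes was higher and 1 lower, and CD68 was the 1 of 4 tested markers of other cell types that was called (0.77 ± 0.14).

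The unsorted DLD1 controls asked what the dye and the time in culture do by themselves. On day 1, 20 of the 27 genes were lower in CFSE-labeled than in unlabeled DLD1 and none was higher (edgeR, adjusted over 14518 genes), where 12% of all genes were lower and 9.73% higher. The median log2 difference of the 27 was −0.997, beside −0.01 over all genes. All 4 CFSE samples lay under all 4 unlabeled samples for 19 genes, where 13.3% of all genes did so. Without the 3 libraries that stood apart or went against their label, 15 of 26 genes tested were lower, where 1.9% of all genes were, and the median was −0.66. Without CFSE day 1 replicates 1 and 2 alone 6 were lower, where 0.996% of all genes were.

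TM7SF2 differed most by dye on day 1 (−1.78 ± 0.25, adjusted p = 0.000513, edgeR, and −1.25 without the 3 libraries). It measured 168.4, 172.0, 149.2 and 167.2 CPM in unlabeled cells and 27.04, 26.5, 71.1 and 66.6 CPM in CFSE-labeled cells. LBR was not called and had a difference of −0.07 ± 0.14, with 162.7, 168.4, 207.3 and 163.3 CPM unlabeled and 146.4, 134.1, 195.3 and 191.0 CPM labeled. FDPS measured 690.2, 693.2, 716.3 and 427.8 CPM unlabeled and 142.5, 148.7, 310.0 and 295.3 CPM labeled (−1.49 ± 0.23, adjusted p = 0.000961), and its lowest unlabeled value was that of the library labeled replicate 4. ACAT2 measured 309.5, 296.4, 353.8 and 183.6 CPM unlabeled and 60.3, 63.6, 143.9 and 151.7 CPM labeled. Both sets of labeled replicates were below every unlabeled sample for FDPS and ACAT2, and replicates 1 and 2 were lower than replicates 3 and 4 by a factor of 2.08 for FDPS and 2.39 for ACAT2.

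SREBF2 measured 424.0, 454.4, 441.5 and 634.1 CPM in unlabeled and 197.6, 211.2, 314.0 and 303.1 CPM in CFSE-labeled cells on day 1 (−0.93 ± 0.16, adjusted p = 0.00194, edgeR, and −0.52 without the 3 libraries). IDI1 measured 318.8, 322.2, 419.0 and 361.5 CPM unlabeled and 161.3, 143.3, 195.7 and 212.0 CPM labeled (−0.997 ± 0.15, adjusted p = 0.00088). NSDHL, a decarboxylating dehydrogenase of the late pathway, measured 83.3, 93.1, 86.3 and 74.2 CPM unlabeled and 40.4, 50.3, 62.3 and 60.3 CPM labeled (−0.66 ± 0.13, adjusted p = 0.00381). For these 3 genes the dyed samples lay wholly under the undyed samples. INSIG1 was lower as well (−0.94 ± 0.26, adjusted p = 0.0178), at 154.8, 151.7, 386.5 and 385.6 CPM labeled and 439 to 564 CPM unlabeled, whereas INSIG2 had a difference of −0.14 ± 0.26. PMVK (−0.09), LBR (−0.07), SCAP (−0.07), INSIG2, GGPS1 (−0.34), SC5D (−0.40) and NPC1L1 (1.44, on few reads) were the 7 genes not called. NPC1L1 was the only gene of the set with a fitted difference above 0.

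**Figure D4:**
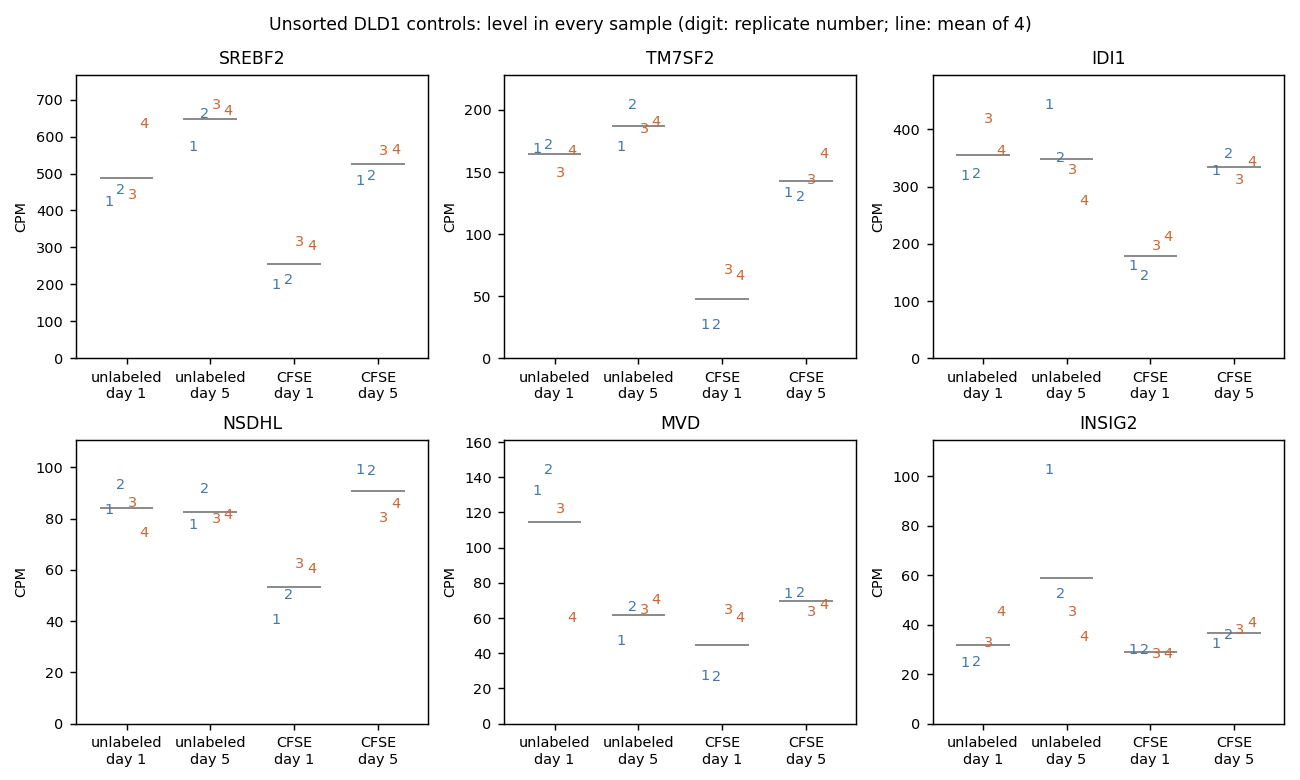
Level in CPM (vertical axis, from 0) of SREBF2, TM7SF2, IDI1, NSDHL, MVD and INSIG2 in the 16 unsorted DLD1 samples, by dye and day, with the replicate number as the plotted digit and a line at the mean of 4. CFSE day 1 has the lowest mean for all 6 genes, and the sample marked 4 in unlabeled day 1 lies near the day 5 samples for SREBF2 and MVD.

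On the later day no difference by dye was called: edgeR called 0 of the 27 genes, with 2 at an unadjusted p under 0.05 (3537 of all 14518 genes tested), and DESeq2 called 0, where 5.13% of all genes were called by edgeR. The fitted differences ran from −0.68 for INSIG2 to 0.39 for ACAT2 and NPC1L1, with a median of −0.02. Without the 3 day 1 libraries, 5 of 26 genes tested were called, a share near the 19.6% of all genes called in that fit. ACAT2 (0.40), EBP (0.33) and TMEM97 (0.32) were higher and TM7SF2 (−0.38) and SREBF2 (−0.29) lower in labeled cells. Of 12 proliferation genes, 11 were higher in CFSE-labeled cells on the later day, where 3.11% of all genes were higher. On day 1, TOP2A was the 1 of 12 that was lower, with a median of −0.09 over the 12, where 12% of all genes were lower.

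Over time, most of these genes were higher in CFSE-labeled cells later: 20 of 27 were higher on the later day than on day 1 and NPC1L1 was lower, where 20.2% of all genes were higher and 19.1% lower (edgeR). This comparison and that of dye on day 1 share the 4 CFSE day 1 samples. TM7SF2 rose by 1.58 ± 0.25 (adjusted p = 0.000334) to 133.3, 129.8, 143.3 and 164.8 CPM, and SREBF2 rose by 1.03 ± 0.16 (adjusted p = 0.000303) to 480.6, 493.3, 559.8 and 564.9 CPM. IDI1 rose by 0.91 ± 0.15 (adjusted p = 0.000431) to 326.6, 356.5, 311.0 and 343.6 CPM, and NSDHL rose by 0.77 ± 0.13 (adjusted p = 0.000503) to 98.9, 98.5, 80.3 and 85.9 CPM. None of the later samples overlapped with day 1 for these 4 genes, and 23 of 26 genes tested were separated in this way, where 23.4% of all genes were. Without CFSE day 1 replicates 1 and 2 there were 11 higher genes, where 7.65% of all genes were higher, and without the 3 libraries 13 of 26 were higher, where 14% were. The share of reads outside genes was 12.1% to 14.8% in CFSE day 1 libraries and 5.20% to 7.31% in CFSE day 5 libraries. Of the 10 epithelial markers 6 were higher on the later day, with the largest changes in VIL1 (2.003 ± 0.31), LGALS4 (1.63 ± 0.38) and CDX2 (1.55 ± 0.35). LGALS4 was low, at a mean of 0.95 CPM on day 1 and 2.95 CPM later. CEACAM5 had a fitted change of −1.54 ± 0.65 and was not called. Both tested markers of other cell types were lower, CD68 (−1.56 ± 0.33) and COL1A1 (−1.39 ± 0.31). The 7 markers of other cell types summed to 16.1 to 34.4 CPM on day 1 and 6.91 to 12.02 CPM later. The part of these in the change over time was not tested.

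In unlabeled cells time changed few of the 27 genes with all samples: MVD was lower (−0.89 ± 0.28, adjusted p = 0.0329, edgeR) and INSIG2 was higher (0.88 ± 0.26, adjusted p = 0.0225), where 13.1% of all genes were lower and 12.4% higher. MVD, the decarboxylase that makes isopentenyl diphosphate, measured 132.2, 144.0, 121.7 and 60.3 CPM on day 1 and 46.7, 66.4, 64.3 and 70.4 CPM on the later day. Without the library labeled unlabeled day 1 replicate 4, 8 were lower and 2 higher, where 22.9% of all genes were lower and 19.2% higher, and without the 3 libraries 8 were lower and 4 higher, where 25.5% were lower and 23% higher. The 8 then lower were ACAT2, HMGCS1, MVK, MVD, FDPS, HSD17B7, EBP and TMEM97, and the 4 higher were MSMO1, SREBF2, SCAP and INSIG2. INSIG2 measured 24.7, 25.0, 32.8 and 45.3 CPM on day 1 and 102.5, 52.6, 45.3 and 35.3 CPM later, with the first of the later samples far above the rest. The call counts in unlabeled cells were 0 or 1 when unlabeled day 1 replicate 1, 2 or 3 or unlabeled day 5 replicate 1, 2 or 3 was left out.

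The dependence of the dye difference on the day was itself tested. Of the 27 genes, 6 passed, all with the difference moving upward from day 1 to the later day, where 0.847% of all genes did: ACAT2, FDPS, EBP, TMEM97, IDI1 and NSDHL, with fitted interactions from 0.80 to 1.83 on the log2 scale. Without the 3 libraries 12 passed, where 2.25% of all genes did upward, whereas without CFSE day 1 replicates 1 and 2 alone 0 did by edgeR, with 14 at an unadjusted p under 0.05 (1150 of all 14360 genes tested), where 0.0696% of all genes did upward, and leaving out single libraries gave 0 to 14. The median interaction of the 27 genes was 0.93. The 12 proliferation genes had a median of 0.85, with 1 past the adjusted threshold and 11 at an unadjusted p under 0.05 by edgeR, and of 10 fatty acid synthesis genes 3 passed, with a median of 0.84. The part of these in the sterol result was not tested. The single omissions that gave 0 or 1 were CFSE day 1 replicates 1 and 2, CFSE day 5 replicates 1, 2 and 4, unlabeled day 1 replicates 1, 2 and 3 and unlabeled day 5 replicates 1, 3 and 4, and those that gave 12 or 14 were unlabeled day 1 replicate 4 and CFSE day 1 replicates 3 and 4.

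**Figure D5:**
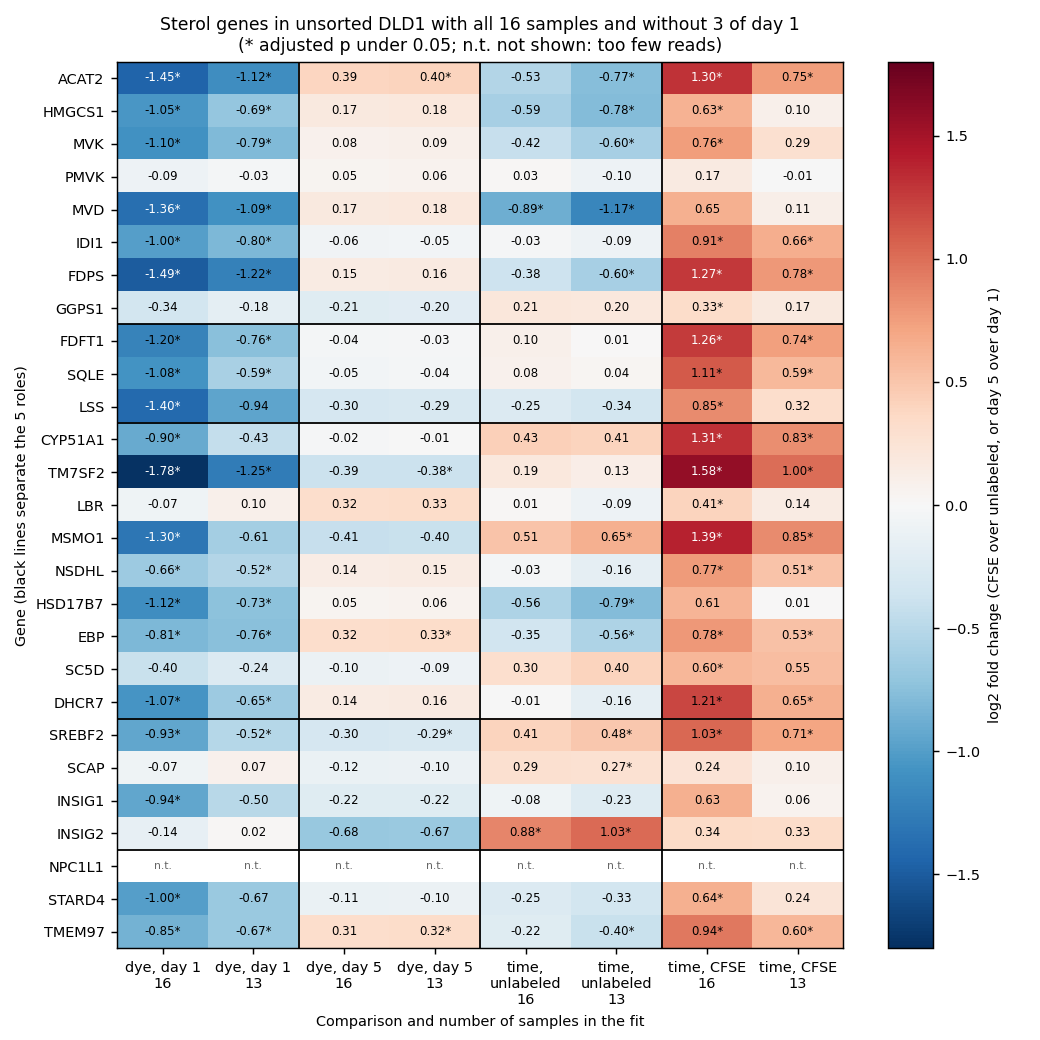
Log2 fold change for dye (CFSE over unlabeled) and time (day 5 over day 1) in unsorted DLD1 for the 27 genes (rows, by role), each with all 16 samples and with the 13 that remain without the 3 libraries (columns), and an asterisk for an adjusted p under 0.05. Dye on day 1 holds 20 asterisks with 16 samples and 15 with 13. NPC1L1 is left blank in all columns, because the 13 samples held too few reads of it. With 16 samples it was tested, and it was called lower over time in CFSE-labeled cells (−3.24).

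The other lists were read in the same day 1 comparison of dye, where 12% of all genes were lower and 9.73% higher. Of 10 fatty acid synthesis genes tested, 7 were lower in CFSE-labeled cells, led by ACSS2 (−1.57 ± 0.24), SCD (−1.76 ± 0.30) and ACLY (−0.72 ± 0.14), and their summed level was 1820 to 3146 CPM labeled and 4090 to 5601 CPM unlabeled. Of 10 genes of SREBP processing and turnover, 1 was lower (MBTPS1, the site-1 protease that cuts SREBP, −0.54 ± 0.17) and 1 higher (PAQR3, 0.64 ± 0.19). Of 12 isoprenoid users 2 were higher (DHDDS and RABGGTB) and 1 lower (ICMT), with a median of 0.23. Of 10 genes of sterol storage and intracellular transport 2 were lower (NPC2 and LIPA), with a median of −0.15, and of 6 genes of LXR response and sterol efflux MYLIP was higher (1.505 ± 0.51). Of 10 epithelial markers 4 were lower in labeled cells, among them VIL1 (−2.34 ± 0.32) and CDX2 (−1.32 ± 0.35), and the share of reads outside genes was 12.1% to 14.8% in CFSE day 1 libraries and 8.96% to 13.6% in unlabeled day 1 libraries. The 7 markers of other cell types summed to 16.1 to 34.4 CPM labeled and 5.44 to 11.5 CPM unlabeled, with CD68 the 1 of 2 tested that was called and CD3E at 0. The part of these in the sterol result was not tested.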

How the data were processed

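RNA from 64 samples was sequenced as 50-base single-end reads. The sample labels and methods name TopHat for alignment to hg19 and HTSeq for counting, with versions and the strand setting not given in the sources used here. The authors deposited unnormalized read counts per Ensembl gene, 1 file per sample. 5 summary lines per file that name no gene were left out, of which reads outside genes made up 5.19% to 14.8%. Samples were grouped by their labels.

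The filter on low counts asked for 10 or more reads in 4 or more of the samples compared. Counts were scaled with TMM and tested with edgeR 4.0.16 in R 4.3.3 (quasi-likelihood F test, two-sided), with p-values adjusted over all genes tested and called at 0.05. The sorted fits held the 48 sorted samples with cell line as a term, or the 8 of a line, and the control fit held all 16 control samples, which share 1 estimate of spread. The fits were tested first on simulated data with 200 changed genes and the same spread for all genes. Those data held no level differences between lines, paired samples or odd libraries, so they do not test the fits under these. CPM were scaled by TMM, and gene symbols, exon lengths and GRCh37 positions came from GENCODE v44lift37, so ACACA and PECAM1, which matched no row, were not analysed. Promoter windows came from RefSeq. An interval or SE covers the spread between samples, and counting error at 12237225 to 20913455 reads is part of it.

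The 27 genes, the other lists and the tests were chosen with earlier results of these data known. Genes given in full were the 6 of smallest p across the lines, those that passed the interaction test and the 4 of smallest p for time in the controls, and up to 3 genes per other list were named. Values of ACAT2, FDPS, HMGCS1, MVD, INSIG1 and INSIG2 in every sample were added after they were seen. No pair of samples held identical counts.

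Same-numbered LRC and non-LRC samples deviated together in DLD1 (correlation of deviations 0.15 to 0.34), HCT15 (0.24 to 0.43), HT55 (0.14 to 0.40) and SW48 (0.13 to 0.46), and were taken as paired there, but not in RKO (−0.07 to 0.01) or SW948 (0.01 to 0.12), nor in the controls (lowest −0.27). Differently numbered samples within replicates 1 and 2, or within 3 and 4, also deviated together in DLD1 and HCT15. Their correlations were 0.15 to 0.23 in DLD1 and 0.27 to 0.45 in HCT15. Alternatives were DESeq2 1.42.0, DESeq2 size factors in edgeR, scaling by library size alone, no filter, a replicate block, each sample or cell line left out, all 48 sorted samples in 1 fit and, chosen after seeing the data, 3 control libraries left out and replicates 1 and 2 against 3 and 4 as a covariate.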

Additional observations from a re-analysis of the deposited data

Results flagged for a closer look

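A sample was set apart where its gap to the nearest of the other 3 samples of its group, divided by the range of the group, passed Dixon's critical value for 4 samples. This held for 30 of 422 combinations of gene and group (7.11%), and chance alone does so in about 1 in 20. Replicate 3 of HT55 LRC samples lay above the rest for GGPS1 (77.7 CPM). Replicate 2 of HT55 LRC samples lay above the rest for TMEM97 (68.5 CPM) and below the rest for FDFT1 (241 CPM) and SQLE (95.8 CPM). Replicate 3 of SW948 non-LRC samples lay above the rest for IDI1 (154 CPM) and MSMO1 (219 CPM) and below the rest for MVD (75.1 CPM). Replicate 4 of SW948 non-LRC samples lay below the rest for TMEM97 (174 CPM). Replicate 4 of RKO LRC samples lay above the rest for GGPS1 (60.7 CPM). Replicate 3 of RKO non-LRC samples lay below the rest for SQLE (383 CPM) and INSIG1 (181 CPM). Replicate 2 of SW48 LRC samples lay above the rest for HMGCS1 (219 CPM) and EBP (68.4 CPM). Replicate 2 of SW48 non-LRC samples lay above the rest for ACAT2 (135 CPM), FDPS (315 CPM), FDFT1 (319 CPM), HSD17B7 (14.8 CPM) and EBP (111 CPM). Replicate 1 of SW48 non-LRC samples lay above the rest for NPC1L1 (1.91 CPM). Replicate 1 of sorted DLD1 non-LRC samples lay above the rest for CYP51A1 (16.9 CPM). Replicate 4 of HCT15 non-LRC samples lay below the rest for NSDHL (46.4 CPM). Replicate 4 of unlabeled day 1 DLD1 samples lay above the rest for CYP51A1 (16.3 CPM) and SREBF2 (634 CPM) and below the rest for PMVK (20.6 CPM), FDPS (428 CPM) and TMEM97 (110 CPM). Replicate 3 of unlabeled day 1 DLD1 samples lay above the rest for LBR (207 CPM). Replicate 4 of unlabeled day 5 DLD1 samples lay below the rest for SQLE (273 CPM). Replicate 1 of unlabeled day 5 DLD1 samples lay below the rest for CYP51A1 (11.7 CPM). Replicate 2 of CFSE day 5 DLD1 samples lay above the rest for PMVK (27.3 CPM). The LRC change differed among lines by the interaction test of edgeR for NPC1L1 (adjusted p = 0.000445), TM7SF2 (0.000945), EBP (0.0119) and LBR (0.04998). The dye difference changed between the days, by the test of edgeR on the difference itself, with log2 interactions of 1.83 for ACAT2, 1.65 for FDPS, 1.16 for TMEM97, 1.125 for EBP, 0.93 for IDI1 and 0.80 for NSDHL.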

How the results depend on the processing

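Counts are of the 27 genes called. Across the 6 lines, 18 became 10 without RKO. With DESeq2 the count was 1 in SW948, 1 in SW48, 2 in HCT15 and 13 for dye by day. With no filter it was 3 in SW948, 1 in SW48, 13 in DLD1, 2 in HCT15, 14 for the line interaction and 15 for dye by day. With all 48 sorted samples in 1 fit it was 1 in HT55, 1 in SW948, 2 in DLD1 and 4 in HCT15. With the replicate block it was 1 in SW948, 11 in SW48, 17 in DLD1, 12 in HCT15 and 19 for the line interaction, and it moved no other count by over 1.5 times.

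Of the settings chosen after seeing the data, the covariate of replicates 1 and 2 against 3 and 4 gave 17 in DLD1, 9 in HCT15, 5 for time in unlabeled cells and 14 for dye by day. Without CFSE day 1 replicates 1 and 2 the count was 8 for time in unlabeled cells, 11 for time in CFSE-labeled cells, 6 for dye on day 1, 1 for dye on day 5 and 0 for dye by day. Without these and unlabeled day 1 replicate 4 it was 12, 13, 15, 5 and 12 in the same order.

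Leaving out 1 replicate gave 13 to 17 across the lines, 0 to 4 in HT55, 0 to 4 in SW948, 20 to 22 in RKO, 0 in SW48, 4 to 9 in DLD1, 0 to 1 in HCT15, 2 to 9 for the line interaction, 0 to 10 for time in unlabeled cells, 14 to 23 in CFSE-labeled cells, 17 to 22 for dye on day 1, 0 on day 5 and 0 to 14 for dye by day. The causes were not tested. Of 1897 values of single called genes under an alternative, outside the line interaction, 1658 kept their direction and their side of the threshold, 239 kept the direction but were no longer past it, and 0 reversed. The alternatives refit the same counts or most of them, so these values are not independent and a reversal was unlikely from the start. The line interaction has no direction, and 27 of its values stayed past the threshold while 9 did not. The low counts of NPC1L1 limit what can be read of it.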
